A study of Mus musculus with 8 samples.

Results

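CRTC1-MAML2-induced salivary gland tumors (T) were compared with normal salivary glands (N) of littermates that lacked the transgene. The comparison took the arrays labeled tumor 1 to 4 (T1 to T4) and normal control 1 and 2 (N1, N2), 6 of the 8 arrays of the series, and left out the 2 arrays of tumor-adjacent gland. Every mouse was of the FVB/J strain. The tumors arose in mCre-CM(+) mice, which carried MMTV-Cre together with LSL-CM, a transgene of FLAG-tagged human CRTC1-MAML2 cDNA behind a loxP-flanked stop cassette. The N glands came from mCre-CM(–) littermates, which carried MMTV-Cre and no fusion transgene, so Cre was common to both groups. In this line Cre acts in the ductal cells of the salivary gland, while the transgene, once the cassette is deleted, is driven by a ubiquitous promoter. N1 was a littermate of the mouse with T1 and N2 of the mouse with T2, and T3 and T4 came from separate mice. The title and tissue label of T2 place it among the tumors, but its source description names gland next to tumor 2, and the labels do not settle which is in error. Its signals correlated across tested probes at 0.933 to 0.950 with those of the other tumors and at 0.752 and 0.757 with those of the normal glands. The study worked mainly with its transgenic Line 1, but the line, the age and the gland of these particular mice are not given in the sources used here. The tumors and normal glands are separate mice, 1 array for each, so the spread within a group is that between mice and arrays together.

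Mucoepidermoid carcinoma (MEC) is a salivary gland cancer built of mucous, epidermoid and intermediate cells. The CRTC1-MAML2 fusion joins the CREB-binding domain of the coactivator CRTC1 to the transactivation domain of the Notch coactivator MAML2, and it activates genes whose promoters bind CREB at the cAMP response element (CRE). The normal gland is mostly made of acinar cells, which fill their cytoplasm with messages for secreted saliva proteins, and of ducts that modify the saliva. A tumor and a whole gland therefore differ in their cells as well as in the transgene, and in whole tissue fewer cells of a type and less RNA per cell cannot be told apart.

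RNA was hybridized to 1-color Agilent arrays with 62939 spots each, on which 60915 probes were measured. Signals are given as scaled log2 intensity, that is, log2 intensity minus the 75th percentile of the same array, so each change is relative to that percentile. A probe was tested if 2 or more of the 6 arrays read it well above background and each group had a value, which held for 45253 probes. A probe was called when T and N differed 2-fold or more and the limma FDR was 0.05 or lower, the FDR being the Benjamini-Hochberg adjusted p over all tested probes. Gene symbols could be paired with 15 of the probes. For the others the files give a maker's number or a long intergenic noncoding RNA (lincRNA) name. The salivary and tumor cell type markers, the fusion transgene and the targets of CREB and of the retinoblastoma pathway were not analysed here for want of paired names, so the labels of tumor and gland could not be checked against them.

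The arrays themselves differed between the groups before any probe was compared. The 75th percentile of log2 intensity was 7.13 on N1 and 6.67 on N2, and 7.93, 8.42, 8.04 and 7.73 on T1 to T4. The difference of means, 1.13 (exact two-sided permutation p = 0.0667, the smallest that 15 splits allow), means that subtracting the percentile lowered the T arrays by more than the N arrays. Probes well above background made up 57.7% and 59.9% of those measured on the N arrays and from 70.0% to 76.3% on those of T (exact two-sided permutation p = 0.0667). Of the spots for ERCC controls, sequences foreign to the mouse, 24.0% and 18.6% were well above background on N1 and N2 and from 43.8% to 52.9% on T1 to T4. The part of these differences in the results below was not tested.

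Tumor and normal gland differed across much of the array. limma called 22055 probes, or 48.7% of those tested, of which 12714 (28.1%) were higher and 9341 (20.6%) lower in T. No overlap between T and N was seen at 30060 probes (66.4%), all T arrays lying above both N arrays at 17030 (37.6%) and below both at 13030 (28.8%). An unadjusted p under 0.05 in limma was reached by 26505 probes. The count of calls was 14241 with normexp background correction and 14475 among the 29427 probes that every array read well above background. The split between higher and lower followed the scaling. Higher probes were 57.6% of calls with the 75th percentile subtracted, 54.2% with the median of the tested probes subtracted, 51.4% with quantile normalization and 50.7% in the authors' own log2 table. They were 86.1% with no scaling and 13.4% with the mean of the 15 symbol-paired probes subtracted. Over all tested probes the log2 fold change had a median of 0.31 with the 75th percentile, 1.44 with no scaling and -1.22 with the symbol-paired probes. Called in the same direction under 5 scalings, these 3 with the median and quantile normalization, were 3521 higher and 3923 lower probes, with medians of 3.65 and -3.32 on the log2 scale of the main setting. The symbol-paired mean alone gave the same 3521 higher and no scaling alone the same 3923 lower, so 1 scaling sets each count.

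**Figure D1:**
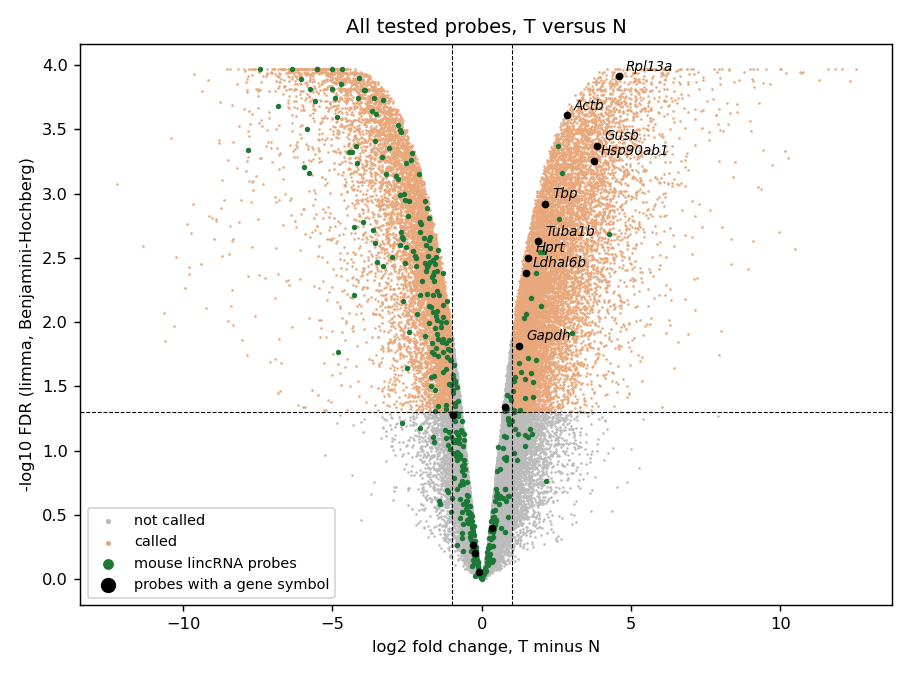
Log2 fold change of T minus N (x axis) against -log10 of the limma FDR (y axis) for the 45253 tested probes. Dashed lines mark a 2-fold change and an FDR of 0.05. Black points are the 15 probes with a gene symbol, of which the 9 called ones lie on the higher side, and green points are the mouse lincRNA probes, whose called members lie mostly on the lower side with the 75th percentile subtracted (148 lower, 27 higher) but not with no scaling (65 lower, 120 higher).

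The split between higher and lower changed with the size of the change, though not steadily. Over all calls, decreases were 42.4% at 2-fold or more, 41.3% at 4-fold, 43.3% at 8-fold and 48.7% at 16-fold. They were 58.6% at 64-fold (212 higher, 300 lower) and 49.0% at 256-fold (52 higher, 50 lower). Many of the higher calls are bounds, as given in the next paragraph. Among the calls well above background on all 6 arrays, where neither side is a bound, 6868 probes were higher and 7282 lower in T, so that 51.5% were decreases. At 16-fold or more the counts were 546 higher and 747 lower, or 57.8% decreases. At 64-fold or more they were 66 higher and 167 lower, or 71.7% decreases, and at 256-fold or more 10 higher and 23 lower. At each of these sizes the requirement of all 6 arrays removed more higher than lower calls, so the filter itself raised the share of decreases. With the same filter, decreases were also the larger share at 64-fold under quantile normalization (80.9%) and subtraction of the median (75.3%). So they were with normexp background correction (66.0%) and subtraction of the mean of the symbol-paired probes (96.9%), but they were 16.7% with no scaling. This count was added after the data had been seen, and no test was made of the shares.

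Some calls rest on a group in which the probe was not measured above background, and such probes passed the filter only through the group where they are high. The conditions for this are not alike on the sides, since a higher probe needs only 2 dark arrays and a lower probe 4, so the counts are not compared. For 4374 of the 12714 higher probes (34.4%) the signal was not well above background on either N array, and 3435 of these were well above it on all 4 T arrays. Their fold changes are bounds, made from the lowest signal well above background on each N array. The bound was at least 2-fold for 1696 of them, at least 4-fold for 847 and at least 16-fold for 159, and the largest was at least 1228-fold higher. Of the 9341 lower probes, 575 (6.16%) were not well above background on any T array. All 575 had a bound of at least 2-fold, 335 of at least 4-fold and 57 of at least 16-fold, and the largest was at least 108-fold lower.

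Pairs of tumors differed about as often as the 2 normal glands did. N1 and N2 differed by at least 2-fold at 17.3% of tested probes, and pairs of tumors at between 12.2% (T1 and T3) and 25.5% (T2 and T4). A normal gland and a tumor differed so at between 57.3% and 61.9%, with no overlap with the pairs inside a group. The median SD over probes was 0.40 among the tumors and 0.29 between the normal glands. Taken singly against the mean of N1 and N2, T1 differed by at least 2-fold at 60.6% of probes, T2 at 58.3%, T3 at 57.9% and T4 at 57.2%.

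**Figure D2:**
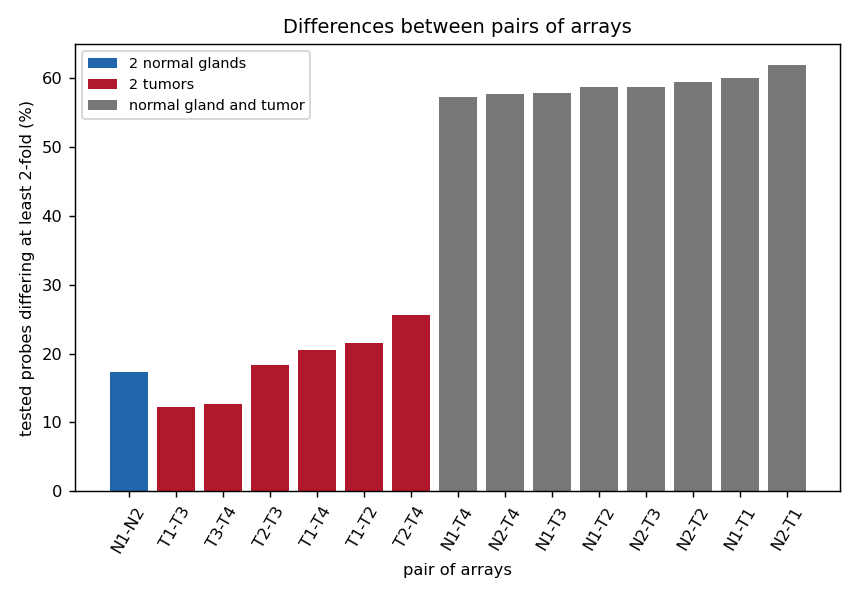
Percent of tested probes that differ by at least 2-fold (y axis) between each pair of the 6 arrays (x axis), each pair over the probes measured on both. The 8 bars that set a normal gland against a tumor lie between 57.3% and 61.9%, above every pair within a group (12.2% to 25.5%).

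Most calls were carried by every tumor. Calls were chosen on these same 4 tumors by a mean change of 2-fold or more and a low FDR, which itself favors such shares. Of the 12278 higher calls with a value on all 6 arrays, 9636 (78.5%) were at least 2-fold above the N mean in each of the 4 tumors, and of the 9007 lower calls 7223 (80.2%) were at least 2-fold below it in each. Where 3 of 4 tumors passed, the exception differed by direction. For the 2213 such higher calls T2 was the exception at 1194, T4 at 530, T1 at 322 and T3 at 167. For the 1325 lower calls T4 was the exception at 621, T2 at 307, T1 at 233 and T3 at 164. An SD among the tumors over 2 on the log2 scale was found at 68 higher and 74 lower calls, and at 663 of the 43442 probes with a value on all 6 arrays, though a wide spread itself makes a call less likely. T2, the tumor whose source description names adjacent gland, had the highest 75th percentile and the most probes above background of the 4. Without T2 the fit called 22242 probes.

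The litters gave a second view of the same arrays. T1 was set against its littermate gland N1, and T2 against N2, at 44316 probes measured on these 4 arrays. Both pairs were at least 2-fold higher at 11217 probes and at least 2-fold lower at 8670, and they went opposite ways at 618. Only the first pair changed at 6066 and only the second at 5855. Of the 12510 probes called higher from all 6 arrays that are measured here, 10111 were at least 2-fold higher in both pairs, and of the 9166 called lower, 7995 were at least 2-fold lower in both. These pairs use arrays of the main fit and are no independent sample.

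Genes that cells of every tissue use, kept on arrays and in quantitative PCR as references, were among those that differed. Of the 12 such genes with a probe, 8 rose in T, none fell, and 4 were not called. With 3 further genes on the same control list of the array, 9 of 15 were called higher (28.1% of all tested probes were) and none lower. Of the 9, Ldhal6b passed the filter only through T and has only a bound, which leaves 8 among the other 14. The median log2 fold change was 1.41 over those 14, or 1.26 over the 15 with Ldhal6b at its bound, against 0.31 over all tested probes. Each of the 15 was read by up to 20 spots per array, whose median SD was between 0.04 and 0.45 on the log2 scale. The call held under the 5 scalings for 4 genes, Rpl13a, Gusb, Hsp90ab1 and Actb, and the other calls are relative to the 75th percentile. For increases this rests on the symbol-paired mean alone, which contains these genes.

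Promoter sequences are shown for 3 of the genes that rose and 1 that was not called, because the fusion acts through CREB and CREB binds TGACGTCA or its shorter form TGACG. They are RefSeq sequences of GRCm38.p6, 250 bases before to 50 after the transcript start, 5′ to 3′ on the strand of the gene, with TGACGTCA and TGACG, or the reverse CGTCA, in capitals. The 2 matches of TGACG in Gusb are the overlapping arms of its TGACGTCA.
Gusb, chr5:130003000-130003299, minus strand: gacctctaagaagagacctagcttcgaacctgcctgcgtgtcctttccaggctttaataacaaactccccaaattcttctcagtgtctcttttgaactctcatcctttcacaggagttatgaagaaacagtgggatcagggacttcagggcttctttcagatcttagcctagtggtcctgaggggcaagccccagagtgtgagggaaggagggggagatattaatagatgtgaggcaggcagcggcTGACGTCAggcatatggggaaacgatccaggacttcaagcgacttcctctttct
Tbp, chr17:15499638-15499937, plus strand: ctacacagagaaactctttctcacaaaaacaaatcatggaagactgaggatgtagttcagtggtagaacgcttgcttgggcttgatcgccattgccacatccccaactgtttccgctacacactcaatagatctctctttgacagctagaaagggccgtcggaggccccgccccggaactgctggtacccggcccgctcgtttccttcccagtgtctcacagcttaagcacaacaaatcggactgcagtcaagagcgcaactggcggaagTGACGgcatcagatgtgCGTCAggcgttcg
Rpl13a, chr7:45128696-45128995, minus strand: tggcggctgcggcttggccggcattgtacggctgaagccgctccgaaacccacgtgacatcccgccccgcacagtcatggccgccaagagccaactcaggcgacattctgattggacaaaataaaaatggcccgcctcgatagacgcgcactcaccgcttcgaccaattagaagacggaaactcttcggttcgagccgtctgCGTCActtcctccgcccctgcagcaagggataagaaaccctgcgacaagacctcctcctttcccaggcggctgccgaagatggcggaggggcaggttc
B2m, chr2:122147437-122147736, plus strand: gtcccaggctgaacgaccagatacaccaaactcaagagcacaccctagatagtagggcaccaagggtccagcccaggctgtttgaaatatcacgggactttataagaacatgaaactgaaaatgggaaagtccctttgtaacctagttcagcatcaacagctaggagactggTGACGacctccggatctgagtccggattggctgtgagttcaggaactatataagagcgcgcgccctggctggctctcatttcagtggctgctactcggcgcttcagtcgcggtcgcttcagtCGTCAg
Among the 13 symbol-paired genes in the promoter table, TGACGTCA on either strand was in that of Gusb only, against 1.79% of the 32851 promoters in the table. TGACG on either strand was in the promoters of 7 of the 13, against 20.8% of all. It was held by 3 of the 7 genes called higher and by 4 of the 6 not called, B2m, Ppia, Tfrc and Gk. The E2F motifs TTTCGCGC and TTTGGCGC were in none of the 13, against 0.323% and 0.514% of all promoters. These matches are letters in a window and say nothing of what bound there.

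Rpl13a, a protein of the large ribosomal subunit, had the largest change of the 15. Its scaled log2 signal was 3.38 on N1 and 3.45 on N2, and 8.21, 7.53, 8.10 and 8.16 on T1 to T4. The normal glands lay together and far below each tumor, with T2 the lowest of the tumors. The log2 fold change was 4.58 (SE 0.30, limma FDR 0.00012), or 24.0-fold, and between 3.05 and 5.71 under the 5 scalings. Many processed copies of Rpl13a lie in the genome, and signal from them cannot be told apart from that of the gene without the probe's sequence.

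Gusb, the lysosomal enzyme beta-glucuronidase, whose promoter above holds the full CRE, was next. Its signal was 1.41 and 0.90 on N1 and N2, and 4.99, 4.43, 4.94 and 5.72 on the tumors. The groups were apart by more than 3 log2 units, and T4 was the highest of the tumors. The log2 fold change was 3.87 (SE 0.40, limma FDR 0.00043).

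Hsp90ab1, the constitutive cytosolic HSP90 chaperone, was the least alike in the normal glands of the genes that rose. It measured 3.62 on N1 and 2.31 on N2, and 7.14, 6.66, 6.57 and 6.49 on T1 to T4. The glands lay 1.31 apart for Hsp90ab1, and every tumor was still above N1. The log2 fold change was 3.75 (SE 0.42, limma FDR 0.00056), and between 3.09 and 4.41 with any 1 array left out.

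The cytoskeletal genes both rose. Actb, which encodes beta-actin, was 4.34 and 4.33 on the N arrays and 7.36, 7.20, 7.15 and 7.01 on T1 to T4, with a log2 fold change of 2.85 (SE 0.25, limma FDR 0.00025). Tuba1b, an alpha-tubulin, was 7.44 and 6.84 on the N arrays and 9.06, 8.70, 9.07 and 9.23 on the tumors, with a log2 fold change of 1.88 (SE 0.30, limma FDR 0.00234). Neither overlapped between the groups, and T2 was the lowest tumor for Tuba1b and T4 for Actb. Both genes have near-identical relatives that a probe may also bind.

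Tbp, the TATA-binding protein of the general transcription machinery, was -0.50 and -0.06 on N1 and N2 and 2.01, 2.05, 1.81 and 1.53 on the tumors. It rose by 2.13 on the log2 scale (SE 0.29, limma FDR 0.0012). Hprt, which salvages purine bases, was 5.50 and 5.96 on the N arrays and 7.37, 7.11, 7.33 and 7.33 on the tumors, 3 of which were nearly equal. Its log2 fold change was 1.55 (SE 0.27, limma FDR 0.00314), and the call was lost with the litter as a block (1.51, limma FDR 0.0522).

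The glycolytic gene Gapdh rose the least of the called references and the least firmly. Gapdh was 8.83 and 8.29 on the N arrays and 10.01, 9.37, 9.83 and 10.07 on the tumors. T2 lay 0.54 above N1, closer than any other tumor. The log2 fold change was 1.26 (SE 0.32, limma FDR 0.0153), and it was -0.27 with the mean of the symbol-paired probes subtracted, a scaling that contains Gapdh and takes the mean of these same genes from each of them. The call was lost with the litter as a block (1.13, limma FDR 0.0839), with the row of the slide as a term (1.44 for T1 against the glands, limma FDR 0.0623) and without N2 (0.99, limma FDR 0.106). Ldhal6b, a lactate dehydrogenase-like gene known from testis, was called higher (limma FDR 0.00414), with means of -5.01 in N and -3.53 in T. Its signal was not well above background on either N array and the bound made from it was under 1, so no fold is given. The call was lost with normexp, where T was the lower, with the symbol-paired mean subtracted, with the litter as a block (limma FDR 0.0537) and among the arrays of the first slide row alone (limma FDR 0.0588).

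The other 6 genes were not called, and the sign of each of their differences was not the same under all 5 scalings. G6pd2, a retroposed copy of glucose-6-phosphate dehydrogenase, was 0.36 and -0.18 on N1 and N2 and between 0.77 and 1.02 on the tumors, a difference of 0.79 (limma FDR 0.0457) that was under 2-fold, but was called without N1 (1.06, limma FDR 0.0484) and with no scaling (1.92, limma FDR 0.00585). Nono, an RNA-binding protein of nuclear paraspeckles, was 6.26 and 6.55 on the N arrays and 6.07, 5.34, 5.29 and 5.11 on the tumors. All tumors lay below both glands, at a difference of -0.95 (SE 0.34, limma FDR 0.0528), and it was not called. Nono was called lower with quantile normalization (-1.45, limma FDR 0.0132), normexp (-1.02, limma FDR 0.0205), the median subtracted (-1.05, limma FDR 0.0399), the symbol-paired mean subtracted (-2.48, limma FDR 0.00088) and without T1 (-1.16, limma FDR 0.0208), and it was 0.17 with no scaling. Ppia, which encodes cyclophilin A, differed by 0.35 (limma FDR 0.398), and was called higher with no scaling (1.48, limma FDR 0.00325) and lower with the symbol-paired mean subtracted (-1.18, limma FDR 0.0123). Tfrc, the transferrin receptor, differed by -0.09 (limma FDR 0.884), with N1 at 6.34 and N2 at 5.21 on either side of 3 of the tumors. B2m, the light chain of MHC class I, differed by -0.23 (limma FDR 0.627), and N2, at 10.26, was above every tumor while N1, at 9.11, was below every tumor. Gk, which phosphorylates glycerol, differed by -0.28 (limma FDR 0.543), with both normal glands at -0.23. The symbol-paired mean, which contains these genes, also gave lower calls for Tfrc (-1.62), B2m (-1.76) and Gk (-1.81).

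**Figure D3:**
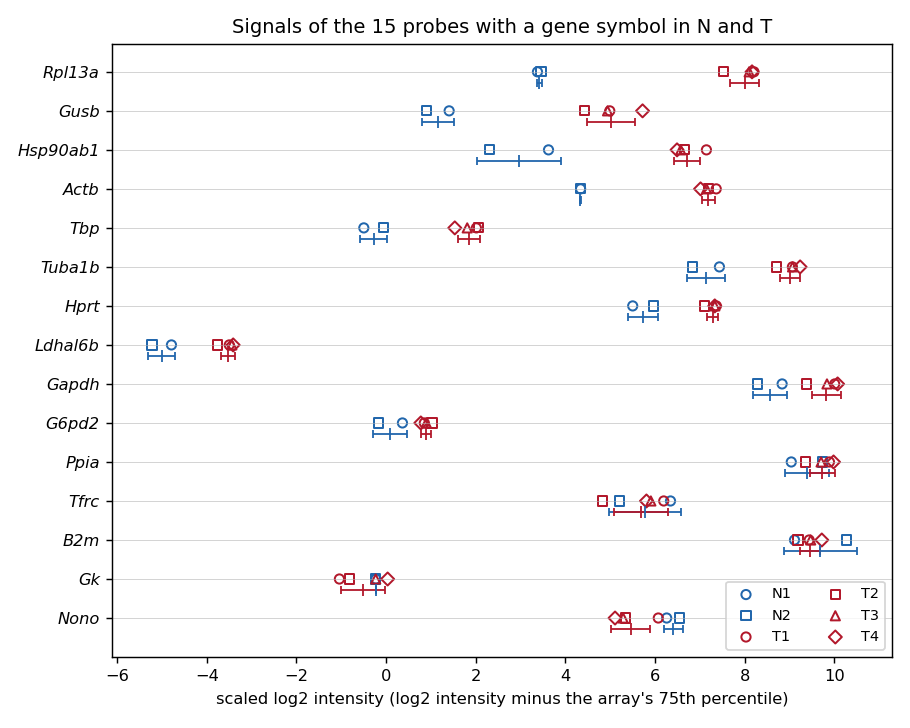
Scaled log2 intensity (x axis) of the 15 probes with a gene symbol (y axis, ordered by T minus N) on each N array (blue) and T array (red). The bars under the points are the mean and SD of each group (n = 2 and n = 4). In 11 of the 15 genes the 2 groups do not overlap, where 66.4% of all tested probes do not, and the widest gap is that of Rpl13a.

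Control probes at both ends of Gapdh and of Pgk1, another glycolytic enzyme, bear on how these signals can be read. For GAPDH the signal of the 5′ probe minus that of the 3′ probe was -3.07 on N1 and -3.58 on N2, and -0.42, -0.34, -0.51 and -0.81 on T1 to T4. For PGK1 it was -7.70 and -8.48 on the N arrays and -4.60, -4.45, -4.93 and -5.78 on the tumors. The 5′ end was thus weaker relative to the 3′ end in each normal gland than in any tumor, by 2.81 for GAPDH and 3.15 for PGK1 in the group means (exact two-sided permutation p = 0.0667 for each, the smallest possible). The 3 readings of 1 gene gave different changes: the 3′ control probe of GAPDH differed between T and N by 2.28, its 5′ control probe by 5.09, and the symbol-paired Gapdh probe by 1.26. For PGK1 the 3′ probe differed by 3.00 and the 5′ probe by 6.15. A change of several log2 units at a probe near a 5′ end was thus measured where the 3′ end of the same transcript changed less. The part of this difference in the calls was not tested, and the positions of the other probes in their transcripts are not used here.

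**Figure D4:**
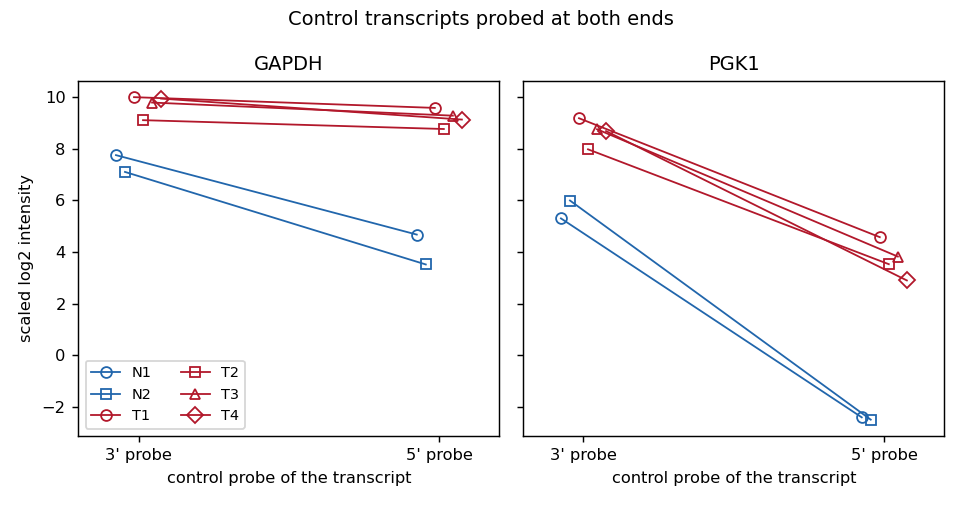
Scaled log2 intensity (y axis) of the control probes at the 3′ and 5′ ends (x axis) of GAPDH (left) and PGK1 (right), with 1 line for each array, N blue and T red. The N lines fall more steeply than the T lines toward the 5′ probe, by 2.81 for GAPDH and 3.15 for PGK1 in the group means.

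The probes with the largest changes carry no symbol here. They were taken from the 14125 called probes that were well above background on all 6 arrays with no overlap between the groups. The largest increase, at ASMM10P043011, was from -3.01 and -3.29 on N1 and N2 to 8.27, 6.06, 7.98 and 8.17 on the tumors, a log2 fold change of 10.77 (SE 0.64, limma FDR 0.000113). ASMM10P046567 was -2.04 and -3.04 on the N arrays and 9.54, 3.49, 8.77 and 10.03 on the tumors, a change of 10.50 (SE 1.74, limma FDR 0.0027). In both, T2 was the lowest tumor, and for the latter it lay more than 5 log2 units under the next.

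The largest decreases were as uneven. ASMM10P040005 was 9.93 and 10.29 on N1 and N2, and -3.26, -0.89, 5.37 and -3.44 on T1 to T4. It was down in all tumors but kept a strong signal in T3, so that the change of -10.66 had an SE of 2.35 (limma FDR 0.00844). The change was as large without N1 (-10.85, limma FDR 0.0504) and without N2 (-10.48, limma FDR 0.0561), where 1 gland is left and is taken to vary as the tumors do, but the call was lost, as in the methods' t-test after adjustment. ASMM10P049227 was 8.07 and 8.49 on the N arrays and -3.72, -3.34, 0.09 and -1.50 on the tumors, a change of -10.40 (SE 1.03, limma FDR 0.000367). T3 was the highest tumor here too.

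Probes named for mouse lincRNAs, long transcripts that lie between protein-coding genes and are not translated, were mainly lower in T relative to the 75th percentile. Of the 732 on the array 409 were tested, and 175 of them, or 42.8%, were called, against 48.7% of all tested probes. Of these calls 27 were higher and 148 lower. Of the 27, 24 were not well above background on either N array, and of the 148, 18 were not well above it on any T array, so these passed the filter only through the group where they are high. Without N2 the 175 calls became 115. Their median log2 fold change was -0.69, against 0.31 for all tested probes, and 65 were lower and 4 higher under the 5 scalings. No scaling alone gave the 65 and the symbol-paired mean alone the 4. The direction followed the scaling, as 120 were called higher and 65 lower with no scaling, where their median was 0.41 against 1.44 for all tested probes, while quantile normalization gave 16 higher and 166 lower and normexp 2 and 119. Their median was below that of all tested probes under each of these settings. Of the 102 that passed the criteria for the largest changes, 101 were lower, where 7275 of all 14125 such probes were (51.5%). These criteria need a signal well above background on every array, which 24 of the 27 increases lacked on both N arrays. The 101 is therefore set in part by the filter and adds no evidence of direction. Of the 572 tested probes named for human lincRNAs 38 (6.64%, against 28.1% of all tested probes) were called higher and 199 (34.8%, against 20.6%) lower. Of the 38, 32 were not well above background on either N array, and of the 199, 23 were not well above it on any T array. Under the 5 scalings 98 stayed lower and 1 higher. These probes were dimmer than most, with a median scaled log2 signal of -2.55 for the mouse names against -1.39 for the probes with a maker's number.

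The mouse lincRNA decreases described here are the 5 largest among probes called, well above background on all 6 arrays and without overlap between the groups, so each is down in all 4 tumors by that choice. Larger decreases were measured outside these criteria, such as -7.81 at mouselincRNA0424+, named after its value was seen and well above background on only 2 of the 4 tumors. mouselincRNA0065+ was 5.95 and 5.38 on N1 and N2 and between -2.09 and 0.02 on the tumors, a change of -6.81 (SE 0.56, limma FDR 0.000208). mouselincRNA0543+ was 5.40 and 4.99 on the N arrays and between -1.74 and -0.68 on the tumors, a change of -6.35 (SE 0.36, limma FDR 0.000108). The others were MM9LINCRNAEXON11298- (-6.06), mouselincRNA0959+ (-5.50) and mouselincRNA1052+ (-5.03). The single increase by the same criteria, mouselincRNA1422+, was -2.08 and -2.57 on the N arrays and between -1.49 and -0.06 on the tumors, a change of 1.66 (SE 0.48, limma FDR 0.0248). It was not called with the litter as a block (1.54, limma FDR 0.0556), with normexp (0.67, limma FDR 0.126), with the symbol-paired mean subtracted (0.13, limma FDR 0.796) or in the methods' t-test after adjustment, nor without N1 (1.91, limma FDR 0.0679) or N2 (1.41, limma FDR 0.143), which leave 1 gland.

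For 93 mouse lincRNA names, a probe named for the + strand and another for the - strand were both tested. No probe sequence was used, and whether both strands of a locus are transcribed was not checked. Both strands were called lower at 12 names and both higher at 0. One strand was called lower and the other not called at 38, and one higher and the other not called at 8. Neither was called at 30. Of the tested mouse lincRNA probes 36.2% were called lower (20.6% of all tested probes), so some names are lower on both strands without any link between them. The 12 are not read as strands moving together. At 58 names the log2 fold changes of the strands differed by at least 1. Across these names, which share arrays and are not replicates, the correlation between the strands was 0.077 (Pearson) and 0.099 (Spearman).

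At 5 names the strands were called in opposite directions. mouselincRNA0776 was the only such name with all of its N values well above background. Its + strand probe was 0.85 and -0.01 on N1 and N2 and between -2.50 and -1.81 on the tumors, a change of -2.48 (limma FDR 0.00149). Its - strand probe was -3.40 and -2.08 on the N arrays and between -1.23 and -0.60 on T1, T3 and T4, with no value on T2, a change of 1.83 (limma FDR 0.0197). At the other 4 names the strand that rose was not well above background on either N array, as for mouselincRNA0770, whose + strand probe was called higher and whose - strand probe went from -1.23 and -0.72 on the N arrays to between -3.00 and -2.37 on the tumors.

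**Figure D5:**
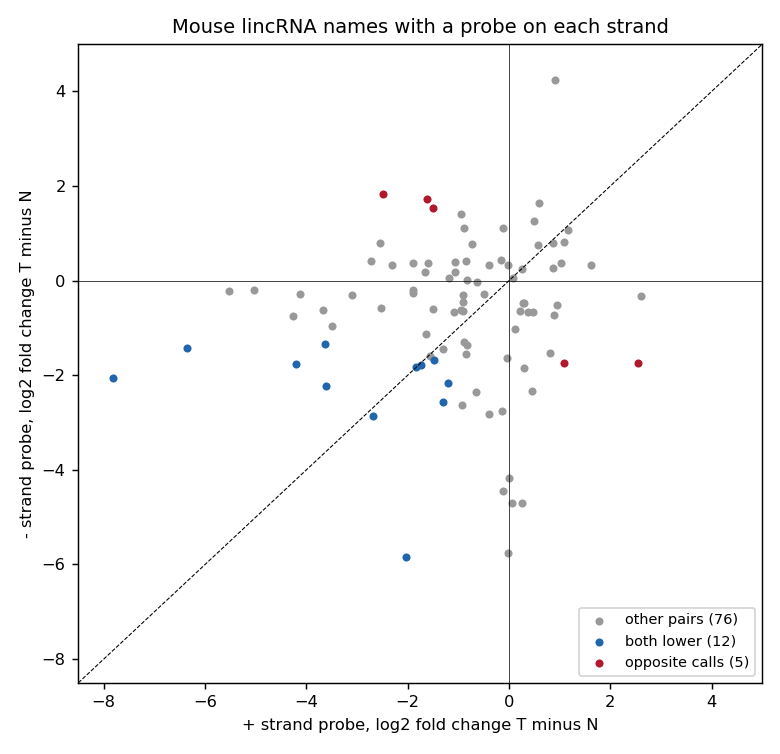
Log2 fold change of T minus N for the + strand probe (x axis) and the - strand probe (y axis) of the 93 mouse lincRNA names with a tested probe on each strand. Blue points are the 12 names lower on both strands, red points the 5 with opposite calls, and the dashed line marks equal change on the strands.

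The place of the arrays on the slide was not balanced. N1, N2 and T1 were in the first row of the slide and T2, T3 and T4 in the second row. Within the first row, T1 against the 2 glands, in a fit that takes T1 to vary as the glands do, gave 17232 calls, 15412 of them shared with the 22055. T2, T3 and T4 have no normal gland in their row, so a fit with the row as a term rests on the same difference of T1 from the glands and uses the other tumors only for the spread. It gave 16073 calls, of which 15260 were shared. Without N1 the count was 16369 and without N2 16035, while with any 1 tumor left out it lay between 19704 and 22242.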

How the data were processed

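Gene expression was profiled with the Mouse LncRNA/mRNA Arrays v3.0. The authors deposited the linear intensity of each spot, corrected for background in Agilent Feature Extraction 11.0.1.1 per the file headers, and a table of log2 values for 42830 probes whose normalization is not given in the sources used here. It was used as an alternative only. Samples were grouped by title and tissue; the source description of T2 names adjacent gland and conflicts with both.

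From the scanner files, control and outlier-flagged spots were left out, log2 intensities of 1 probe were averaged, and each array's 75th percentile was subtracted. No array had saturated spots. With values for both groups, 45253 of the 45554 probes that passed the filter entered the test, made in R 4.3.3 by lmFit and eBayes of limma 3.58.1 with 2 groups and no covariate. Of these, 1811 had no value on at least 1 array, and each was fitted on the arrays that had one (770 were called). The number of arrays limits the precision. Probes were paired with symbols by RefSeq accession for 15 probes, and all matched. Of the gene lists set for the comparison (cell cycle, CREB, EGFR, mucin, squamous, matrix, chemokine and cell type markers), the reference genes alone could be measured. Named were the probes with 1 symbol, and among probes that all 6 arrays read well above background, with no overlap between the groups, the 2 highest and 2 lowest without a symbol and up to 5 highest and 5 lowest mouse lincRNAs. The comparison, lists and tests were chosen with earlier results of these data known. Array measures were compared by exact permutation over the 15 splits.

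In simulated data of 43442 probes with 200 changed, limma recovered 0 at 4-fold and 166 at 16-fold, with 0 and 11 false calls. Far fewer probes were changed there than the 22055 called in the data, which makes the FDR cutoff stricter. Recovery in the data was therefore not measured by it. Alternatives were other scalings and background correction, filters on dim probes, all 8 arrays, replicate block, slide row, intensity trend, stricter thresholds, the methods' t-test and leaving out each array. Python 3.11.15 was used for the tables and plots.

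The littermates share a number in the labels (N1 with T1, N2 with T2). Across probes, the correlation of their deviations from the group mean was 0.02 for the first pair and 0.08 for the second, and the source descriptions in the labels name each normal gland as that of a littermate of the mouse with that tumor.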

Additional observations from a re-analysis of the deposited data

Results flagged for a closer look

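Of 35 measures examined among the 4 tumors, T2 stood apart from the others at 3, where chance sets a sample apart in about 1 of 20 groups. The scaled log2 signal of Rpl13a was 7.53 on T2 against 8.10 to 8.21 on the others, that of Hprt was 7.11 against 7.33 to 7.37, and that of ASMM10P043011 was 6.06 against 7.98 to 8.27. In each, T2 was the lowest tumor and above both normal glands. Its source description names adjacent gland, against its title and tissue label, and whether that bears on these values was not tested. Across the 21285 called probes with a value on all 6 arrays, 1 tumor stood apart by the same measure at 1462 (6.87%), and it was T2 at 626 as the lowest and at 213 as the highest.

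In data outside the comparison of probes, ERCC control spots were well above background at a mean of 48.6% on the T arrays (SD 3.78, n = 4) and 21.3% on the N arrays (SD 3.87, n = 2). The spots of structural negative controls were above it at 0.325% and 0% on the N arrays and at 0.325% to 1.30% on the T arrays (exact two-sided permutation p = 0.267).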

How the results depend on the processing

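The count of 22055 calls was 14241 with normexp background correction, 14475 among the 29427 probes that every array read well above background and 11948 at 4-fold, and between 16035 (without N2) and 22242 (without T2) with each array left out. The mouse lincRNA count of 175 was 329 with the mean of the symbol-paired probes subtracted, 103 among the probes read on every array, 81 at 4-fold, and 115 (without N2) to 177 with each array left out. Among the 559 combinations of a named gene or probe and an alternative, 512 kept the direction and the side of the cutoff, 19 lost the call, 11 gained one and 17 changed sign, 13 of these uncalled in both settings. The sign changed with the symbol-paired mean subtracted, which takes from these genes their own mean, for Gapdh (-0.27), Ldhal6b (-0.051), Ppia (-1.18) and G6pd2 (-0.74). It changed with normexp for Ldhal6b (-0.44), B2m (0.067) and Tfrc (0.19), with quantile normalization for B2m (0.22), and with no scaling for B2m (0.89), Tfrc (1.03), Gk (0.84) and Nono (0.17). It also changed for Tfrc with the slide row as a term and within the first row (0.42 in each), without N1 (0.47) and without T2 (0.19), and for B2m without N2 (0.34). With each array left out Tfrc ran from -0.66 to 0.47 and B2m from -0.81 to 0.34. Leaving out N1 or N2 leaves 1 gland, which is taken to vary as the tumors do. With the litter as a replicate block, the count was 17012 as a fixed term, which rests on the 2 litter pairs, and 22474 as a random one (correlation 0.078), and of the genes and probes named only Gapdh, Hprt, Ldhal6b and mouselincRNA1422+ lost their call, all under the fixed term. The methods' t-test called 20625 probes unadjusted and 17128 after Benjamini-Hochberg adjustment. With each array left out, the difference in the 75th percentile lay between 0.898 and 1.36, that in GAPDH 5′ minus 3′ between 2.56 and 3.06, that in PGK1 between 2.76 and 3.54, and that in the share of probes above background between 12.3 and 14.7 percentage points. The cause of these shifts was not tested.

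The planned position of each tumor, the mean over probes of the distance from the N mean as a share of that of the other tumors' mean, was 1.41, 1.17, 0.977 and 0.803 for T1 to T4. Shares of probes whose groups hardly differ have denominators near 0, and the measure moved too widely to be used. It was 0.669 for T1 and 2.56 for T2 with quantile normalization, 1.57 for T2, -0.996 for T3 and 1.79 for T4 with the median subtracted, 1.14 for T1 and 1.25 for T3 with no scaling, 8.85 for T2 and 0.156 for T4 with normexp, and 0.944 for T1 on all-6 probes. Without 1 of the N arrays it ran from 1.53 to 7.91 for T1, 0.774 to 1.26 for T2, 0.826 to 0.912 for T3 and 0.492 to 0.65 for T4. A least-squares share, chosen after seeing the data, was 1.05 for T1, 0.945 for T2, 0.947 for T3 and 0.91 for T4.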
